A study of Drosophila melanogaster with 2 samples.

Results

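The 10 genes described here are a set of core apoptosis genes of the fly, found by their symbols in the authors' deposited table of 2 RNA-seq libraries, among 14284 genes counted. They are the death inducers reaper (rpr), hid (listed as W), grim and sickle (skl), the caspases Dronc (Nc) and Drice (Ice), the caspase adaptor Dark (Ark), the inhibitors Diap1 (th) and Diap2 (Iap2), and the Bcl-2 family gene Buffy. All 10 had counts in both libraries and reached the summed count of at least 20 that 9142 measured genes reached.

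The study compared sorted type II neuroblasts (neural stem cells of the larval brain) and their progeny with and without RNAi against brat, a translational repressor whose loss gives brain tumours. The brat RNAi library came from a cross of flies with UAS-dicer2, the drivers wor-Gal4 and asense-Gal4 and the reporter UAS-CD8::GFP to tub-Gal80ts flies that carried the brat RNAi. The control library came from the same cross without it, so Dicer-2, the drivers, the membrane-bound GFP and the temperature-sensitive Gal80 were common to both. All animals grew at 18 °C, were moved to 29 °C and were dissected 24 h later as late larvae of the third instar. The drivers are those of worniu and asense, genes of neuroblasts and their progenitors, and an asense driver, as the labels give it, is not particular to type II lineages. The labels do not say how type II cells were told from others in the sort, or how many brains or sorts went into a library. Each group was 1 library, so no difference below has a replicate check, no test was possible, and every comparison is between these libraries rather than between the genotypes.

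In flies, death begins when the products of rpr, hid, grim and skl, together called the RHG genes, bind the inhibitor-of-apoptosis proteins and free the caspases those hold. Dark then assembles with the initiator caspase Dronc, which cleaves effector caspases such as Drice. In the nervous system RHG genes are known to end neuroblasts and to remove surplus newborn neurons. These proteins act largely through cleavage and degradation, which an mRNA count does not measure.

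Gene counts summed to 15236504 in the brat RNAi and 16566265 in the control library. The targeted gene brat had 6312 counts in the brat RNAi and 12210 in the control library, a log2 ratio of brat RNAi over control of -0.69 (95% counting interval -0.73 to -0.65). With the correction for transcript length and level described below, brat stood at -1.14 (-1.18 to -1.09). Of 8 neuroblast markers, 7 had intervals above 0, as did 30.7% of all measured genes. The exception was asense (ase), which type II neuroblasts are known to lack and their later progenitors to express, with 1236 counts in the brat RNAi and 1790 in the control library (-0.27, -0.38 to -0.17). After the correction for transcript length and level described below, pros (0.18) also turned below 0, to -0.26 (-0.31 to -0.21). The 8 markers had a summed normalised count of 66620 in the brat RNAi and 48051 in the control library. Of these, mira alone gave 32542 in the brat RNAi and 24012 in the control library. Summed levels in the brat RNAi and the control library were 4854 and 4978 for 5 neuron markers, 10847 and 10519 for 5 glia markers, and 8382 and 6336 for 6 hemocyte markers. They were 184 and 463 for 7 muscle markers, 65.7 and 3079.8 for 8 female germline and yolk markers, and 67.9 and 129.7 for 4 fat body markers. Median log2 ratios were -0.05 for the neuron and -0.09 for the glia markers, each list with 2 genes above 0 and 3 below. Within the summed lists Fbp1 of the fat body list was at least 2-fold higher (1.26, 0.03 to 2.60) and He of the hemocyte list at least 2-fold lower (-1.32, -2.01 to -0.68). After the same correction Hml (0.48) and Pxn (0.41) of the hemocyte list fell to 0.03 (-0.02 to 0.09) and 0.006 (-0.09 to 0.10). The corrected median of the hemocyte list was 0.02. In the brat RNAi library all 7 muscle and all 8 germline markers were at least 2-fold lower, osk was at 0, and no other marker was at 0 in either library. After the correction, Mlc1 at -0.83 (-1.96 to 0.19), Mlc2 at -0.98 (-1.49 to -0.50) and Tm2 at -0.82 (-2.09 to 0.32) of the muscle list were under 2-fold. The other muscle markers, and the germline markers with a corrected value, stayed at least 2-fold lower. In bulk RNA, fewer cells of a type and less RNA per cell cannot be told apart.

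Levels were set beside each other per length, as read pairs per kilobase of median transcript length per 1000000 gene counts, a scale set by total counts rather than by the size factors behind the ratios. On that scale the inhibitor Diap1 (th) was the most abundant of the 10 genes in both libraries, with 115 in the brat RNAi and 138 in the control library. Diap2 (Iap2) had 76.9 in the brat RNAi and 59.4 in the control library. The effector caspase Drice (Ice) had 55.1 in the brat RNAi and 69.9 in the control library. Diap2 thus stood above Drice in the brat RNAi library and below it in the control library, and the counting intervals of the pair did not overlap in either library. Dronc (Nc) had 13.5 and Dark (Ark) 13.8 in the brat RNAi library, against 16.5 for Dronc and 13.5 for Dark in the control library. Their intervals overlapped in the brat RNAi library and did not in the control library, where Dronc was the higher.

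The RHG genes and Buffy were scarce. Reaper had a level of 1.53 on this scale in the brat RNAi and 3.08 in the control library, and grim had 1.004 in the brat RNAi and 1.95 in the control library. Sickle had 0.81 in the brat RNAi and 1.83 in the control library. Hid had 0.95 in the brat RNAi and 0.78 in the control library, and Buffy 1.14 in the brat RNAi and 1.22 in the control library. In the brat RNAi library the intervals of all 5 overlapped, so they had no order beyond counting error. In the control library reaper, grim and sickle overlapped with each other, hid lay below these 3, and Buffy overlapped with all but reaper. The 4 RHG genes together gave 7.15 counts per 1000000 gene counts in the brat RNAi and 11.0 in the control library, while both inhibitors together gave 382 in the brat RNAi and 390.3 in the control library. Scaled by the size factors instead, the summed inhibitors were higher in brat RNAi, with a log2 ratio of 0.11 (0.06 to 0.16). Their direction thus depended on the scaling.

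**Figure D1:**
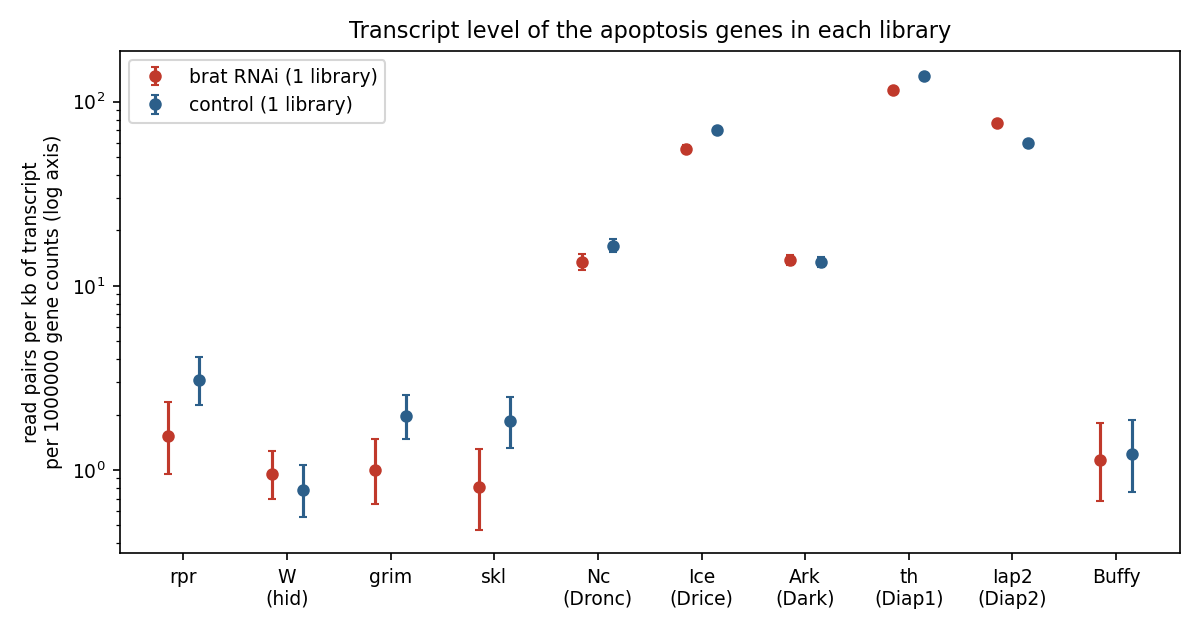
Read pairs per kilobase of transcript per 1000000 gene counts (log axis) for each apoptosis gene in the brat RNAi library (red, left) and the control library (blue, right), with 95% exact Poisson intervals that cover counting error only. The RHG genes and Buffy lie between 0.78 and 3.08, and th lies highest with 115 in brat RNAi and 138 in control.

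Of the 4 death inducers, reaper, grim and sickle were lower in the brat RNAi library and hid was not. Reaper had 21 counts in the brat RNAi and 46 in the control library, a log2 ratio of -0.87 (-1.69 to -0.10). Grim had 26 counts in the brat RNAi and 55 in the control library, a log2 ratio of -0.82 (-1.55 to -0.12). The noncoding RNA gene CR45975 overlaps grim on the same strand in the BDGP6 annotation and has no row in the count tables, so some of these counts may not come from grim mRNA. Sickle, the scarcest of these by counts, had 17 in the brat RNAi and 42 in the control library, a log2 ratio of -1.04 (-1.95 to -0.20). All 3 intervals lay below 0, with their near ends at 1.07-fold for reaper, 1.09-fold for grim and 1.15-fold for sickle. Hid had 45 counts in the brat RNAi and 40 in the control library, a log2 ratio of 0.43 (-0.22 to 1.08), so neither direction was shown. The muscle and the germline and yolk markers given above were lower in the brat RNAi library too, and their part in these RHG values was not tested.

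Sickle was the 1 gene of the 10 to be at least 2-fold lower with an interval excluding 0, a rule that 4.48% of all measured genes met. None of the 10 was at least 2-fold higher, as were 1.15% of measured genes. At 1.5-fold, reaper, grim and sickle were lower, against 8.32% of measured genes, and none was higher, against 5.93%. Scarce genes tended to lower ratios in this pair of libraries. All 4 RHG genes fell in the second lowest of 10 bins of mean level, where 913 genes had a median log2 ratio of -0.27. In that bin 18.7% of genes lay below reaper, 20.4% below grim, 14.0% below sickle and 88.2% below hid. After subtracting the median of genes of similar transcript length and then of similar level, the log2 ratio was -0.44 (-1.26 to 0.34) for reaper, -0.53 (-1.27 to 0.17) for grim and -0.67 (-1.57 to 0.18) for sickle. All 3 intervals then held 0, and no member was 2-fold apart. Over all genes that correction gave 185 higher and 218 lower genes at 2-fold, in place of 105 higher and 410 lower.

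**Figure D2:**
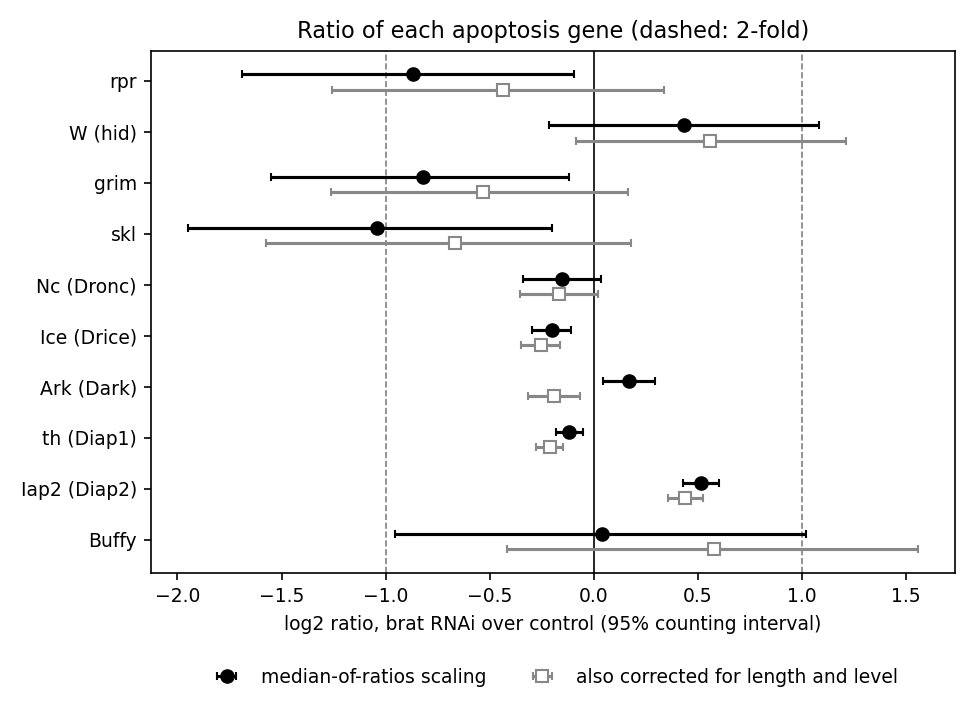
Log2 ratio of brat RNAi over control for each apoptosis gene with its 95% counting interval, by median-of-ratios scaling (filled circles) and after correction for transcript length and level (open squares); dashed lines mark 2-fold. The filled intervals of rpr, grim and skl lie below 0 and their open intervals hold 0, while Iap2 stays above 0 in both, at 0.51 and 0.44.

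A ratio between genes of one library does not depend on how the libraries are scaled. For each count of hid there were 0.467 counts of reaper in the brat RNAi and 1.15 in the control library. There were 0.578 counts of grim per count of hid in the brat RNAi and 1.38 in the control library, and 0.378 of sickle in the brat RNAi and 1.05 in the control library. Summed over reaper, grim and sickle, that ratio was 1.42 in the brat RNAi and 3.58 in the control library, 0.398 times as large in brat RNAi (95% exact conditional interval 0.229 to 0.691). Reaper and grim kept nearly the same proportion, with 0.808 counts of reaper per count of grim in the brat RNAi and 0.836 in the control library. The interval of that change, 0.453 to 2.05 times, is wide at these counts. In these counts hid against the other 3 thus differed between the libraries, with an interval below 1. These ratios, and the split of hid from the other 3, were chosen with the values known, which the interval does not allow for. Transcript lengths also differ (3104 nucleotides for hid against 901 for reaper, 1699 for grim and 1382 for sickle), so the trend of ratio with length is not removed from these ratios. No conclusion on the balance of the RHG genes is drawn from them.

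The 4 RHG genes are neighbours on chromosome arm 3L, in the order hid, grim, reaper, sickle, with no other measured gene between them in the BDGP6 annotation. On the hid side the nearest measured gene was gk (geko), with 19 counts in the brat RNAi and 14 in the control library and a log2 ratio of 0.70 (-0.37 to 1.81). Next came CG7341 at -0.26 (-0.58 to 0.05) and CG32195 at -0.35 (-0.94 to 0.24). On the sickle side stood AlCR2, a receptor for the neuropeptide allatostatin C, with 18 counts in the brat RNAi and 30 in the control library (-0.48, -1.41 to 0.41). It was followed by not at 0.13 (-0.002 to 0.26) and bora at 0.12 (-0.03 to 0.26). The intervals of all 6 flanking genes held 0. After correction for length and level those of grim, reaper and sickle held 0 as well, and gk, at 1.19 (0.11 to 2.29), was the 1 gene of the 10 in this stretch whose interval did not.

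**Figure D3:**
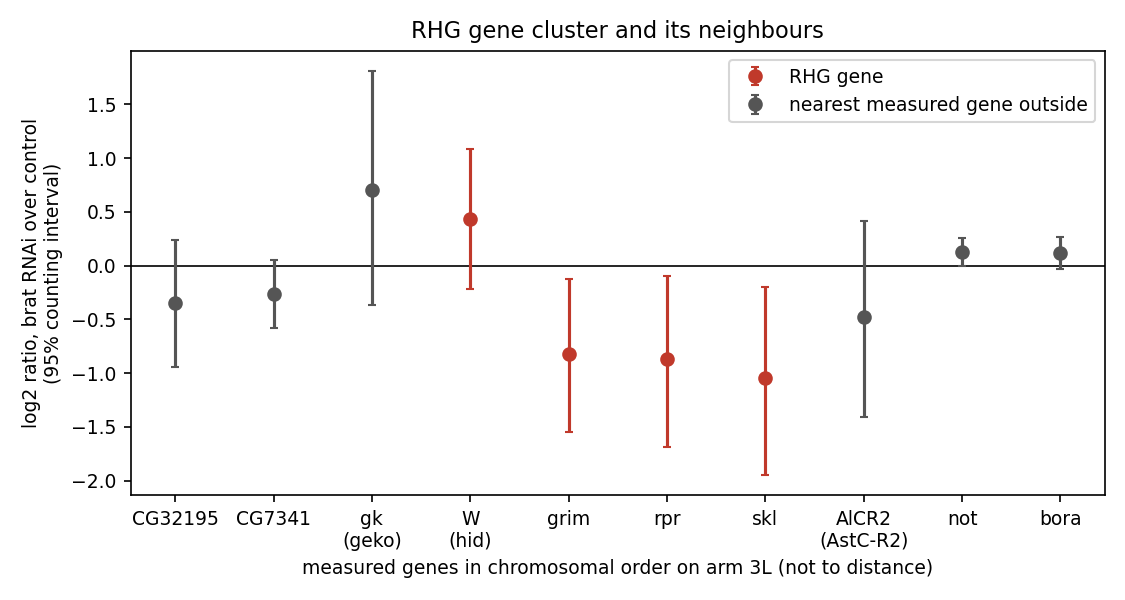
Log2 ratio of brat RNAi over control with its 95% counting interval for the RHG genes (red) and the 3 nearest measured genes on each side (grey), in chromosomal order and not to distance. The adjacent genes grim, rpr and skl lie between -0.82 and -1.04, while hid (W) at 0.43 and the 6 flanking genes have intervals that hold 0; the correction for length and level, not drawn here, puts the intervals of grim, rpr and skl across 0 and that of gk above it.

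The caspase machinery differed little. Dronc, the initiator caspase, had 414 counts in the brat RNAi and 552 in the control library, a log2 ratio of -0.15 (-0.34 to 0.03). Drice, the main effector caspase, had 1619 counts in the brat RNAi and 2232 in the control library, a log2 ratio of -0.20 (-0.30 to -0.11), or 1.15-fold lower. Dark, the fly relative of mammalian Apaf-1, had 1019 counts in the brat RNAi and 1085 in the control library, a log2 ratio of 0.17 (0.05 to 0.30). The sign for Dark turned with the correction for length and level, to -0.19 (-0.32 to -0.07), while Drice kept its own at -0.25. Among the 912 genes in its bin of level, 8.55% had a lower ratio than Drice. Within a library there were 3.91 counts of Drice per count of Dronc in the brat RNAi and 4.04 in the control library. That is 0.967 times as many in brat RNAi, with an interval of 0.837 to 1.12 that holds 1. Dronc per count of Dark was 0.406 in the brat RNAi and 0.509 in the control library, 0.799 times as large in brat RNAi (0.683 to 0.934). Their transcript lengths differ (2015 nucleotides for Dronc and 4853.5 for Dark), and the trend of ratio with length is not removed from that change. After correction for length and level Dronc stood at -0.17 (-0.36 to 0.02), close to Dark at -0.19.

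The inhibitors went opposite ways. Diap1, the ubiquitin ligase that fly cells need to stay alive, had 3415 counts in the brat RNAi and 4446 in the control library, a log2 ratio of -0.12 (-0.18 to -0.05), or 1.09-fold lower. Diap2, its relative that also serves the immune deficiency pathway, had 2404 counts in the brat RNAi and 2019 in the control library, a log2 ratio of 0.51 (0.43 to 0.60), or 1.43-fold higher. That ratio was under 1.5-fold, and 86.2% of the genes in its bin of level had a lower ratio. For Diap1, 13.4% of the genes in its own bin had a lower ratio, and the median of that bin was 0.20. After correction for length and level Diap2 stood at 0.44 (0.35 to 0.53) and Diap1 at -0.21 (-0.28 to -0.15). There were 0.704 counts of Diap2 per count of Diap1 in the brat RNAi and 0.454 in the control library, 1.55 times as many in brat RNAi (1.44 to 1.67). Diap1 per count of Drice, its target, was 2.11 in the brat RNAi and 1.99 in the control library, 1.06 times as large in brat RNAi (0.979 to 1.15). In the annotation Iap2 overlaps bug on the opposite strand, which had 294 counts in the brat RNAi and 418 in the control library. Noncoding RNA genes that were not counted also overlap th, Ark and grim on the opposite strand. The strand setting of the counting is not given in the sources used here, so reads of these overlapping genes may not be fully separated.

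Buffy, a Bcl-2 relative described as protective in flies, had 18 counts in the brat RNAi and 21 in the control library. Its log2 ratio of 0.04 (-0.95 to 1.02) allows differences of about 2-fold in either direction. At its summed count of 39, a gene had to be at least 2.12-fold lower for its interval to exclude 0. Buffy overlaps CG13196 on the opposite strand, which had 8 counts in the brat RNAi and 17 in the control library. Over the 10 genes the median log2 ratio was -0.14, against 0.00 over all measured genes. The interval lay below 0 for 5 of them (24.3% of measured genes) and above 0 for 2 (30.7% of measured genes). In the authors' deposited table the adjusted p-value was 1 for each of the 10 genes, computed by the authors from 1 library against 1.

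**Figure D4:**
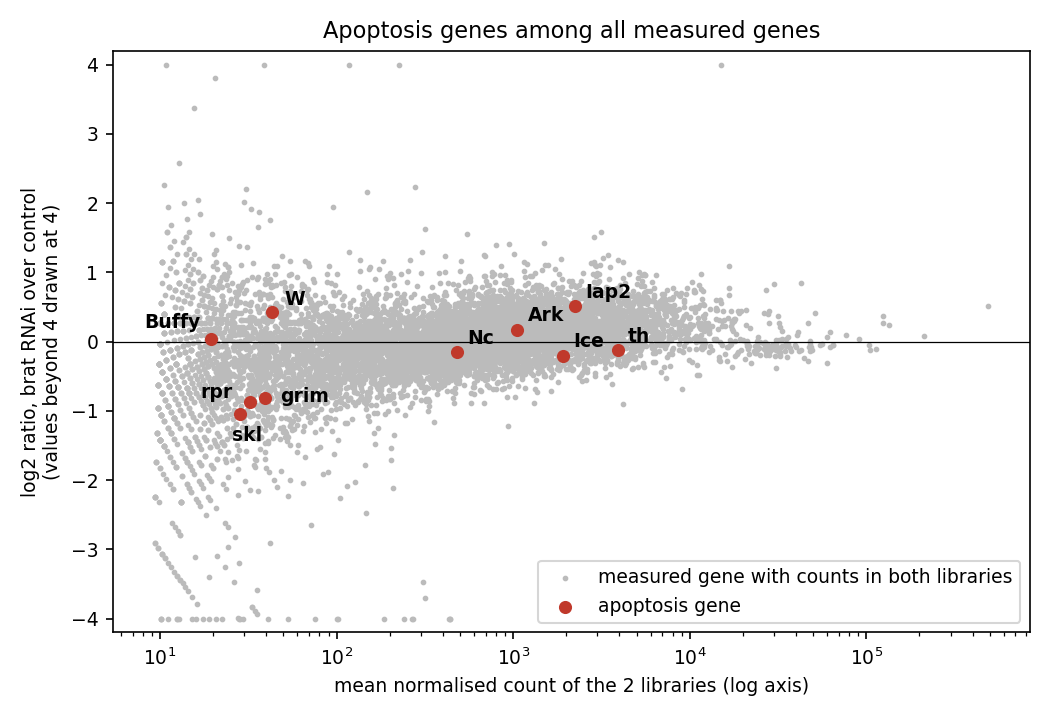
Log2 ratio of brat RNAi over control against mean normalised count (log axis) for measured genes with counts in both libraries (grey), with the apoptosis genes in red; ratios beyond 4 are drawn at 4. The cloud widens and sinks toward low counts, where skl, rpr and grim lie near -1, while the abundant members lie between -0.20 and 0.51.

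Other genes of the pathway were set beside all measured genes in the same way. Of 24 further caspases and core apoptosis genes, 22 were measured, with a median log2 ratio of -0.07. Among these 22, 1 was at least 2-fold lower and none higher, against 4.48% lower and 1.15% higher of all measured genes. The lower one was Drep-3, of the family of caspase-activated nuclease regulators, with 20 counts in the brat RNAi and 50 in the control library (-1.06, -1.89 to -0.29). Its corrected value of -0.71 (-1.54 to 0.06) was under 2-fold, with an interval that held 0. The most abundant were Bruce, a giant inhibitor of apoptosis, at 0.57 (0.52 to 0.61; 0.12 after correction) and the ubiquitin conjugating enzyme eff at -0.04 (-0.09 to 0.01). The caspase decay had 0 counts in the brat RNAi and 7 in the control library, and the testis cytochrome c gene Cyt-c-d had 1 in the brat RNAi and 11 in the control library, both too few to count as measured.

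Factors known to act on RHG genes, 17 in number and all measured, had a median log2 ratio of 0.48 (0.21 after correction). Of these, 3 were at least 2-fold higher and none lower, against 1.15% higher and 4.48% lower of all measured genes. Eip93F, an ecdysone-induced factor that drives programmed death of larval tissue, was at 1.42 (1.31 to 1.54) with 1980 counts in the brat RNAi and 887 in the control library. Grainyhead (grh), which acts on RHG genes with abd-A in abdominal neuroblasts, was at 1.25 (1.18 to 1.32) with 4442 counts in the brat RNAi and 2241 in the control library. The insulin-responsive factor foxo was at 1.16 (0.97 to 1.35) with 640 counts in the brat RNAi and 343 in the control library. The Hox gene Dfd also had a ratio past 2-fold, 1.03, on 17 counts in the brat RNAi and 10 in the control library, with an interval of -0.18 to 2.32 that held 0. After correction Eip93F stood at 1.02, foxo at 1.01, grh at 0.90 (under 2-fold) and Dfd at 1.33 (0.12 to 2.62), which put Dfd past 2-fold with its interval above 0. The neuroblast markers, a list that also holds grh, had a median of 0.45 (0.25 after correction), and their part in these values was not tested. The Hox genes abd-A (-0.28, -0.82 to 0.26), Abd-B (0.03, -0.68 to 0.72) and Ubx (-0.85, -1.92 to 0.15) had intervals that held 0, on 13 to 74 counts in a library. So did the Hox gene Antp (-0.26, -0.60 to 0.08), on 124 counts in the brat RNAi and 178 in the control library. After correction Antp stood at -0.38 (-0.72 to -0.04), with its interval below 0. The stress sensor p53, which is in both lists, was at -0.23 (-0.47 to 0.01). The most abundant of this list were Notch (N) at 0.77 (0.33 after correction) and E2f at 0.56 (0.21 after correction).

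No measured gene of the other 3 lists was 2-fold apart, against 4.48% lower and 1.15% higher of all measured genes. The 16 JNK and TNF pathway genes had a median of 0.16, which turned to -0.06 after correction for length and level. They reached from -0.90 for CG10176, the TNF receptor Grindelwald (-0.61 after correction, with an interval of -1.34 to 0.08), to 0.51 for the kinase gene msn (0.10 after correction), with the phosphatase gene alph at 0.30. The ligand gene egr was at -0.06 (-0.19 to 0.07), and puc, a target and brake of JNK signalling often used as its readout, was at -0.34 (-0.55 to -0.14). The 13 engulfment genes, 12 of them measured, had a median of -0.08, with the receptor drpr at 0.24, Src42A at 0.24 and Rac1 at 0.04. After correction these turned to -0.05 for drpr, -0.06 for Src42A and -0.02 for Rac1. The 18 autophagy genes, 17 of them measured, had a median of -0.06 and lay between -0.37 and 0.30. Among them ref(2)P, an adaptor for autophagic cargo, was at 0.14 and Atg2 at 0.29 (-0.10 after correction).

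**Figure D5:**
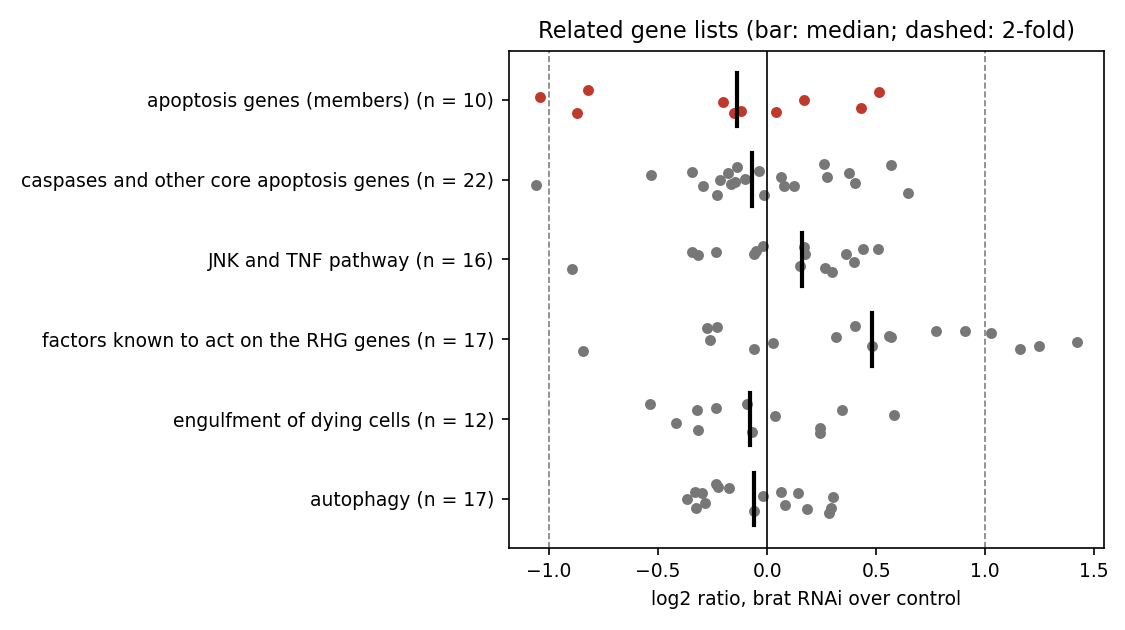
Log2 ratio of brat RNAi over control for the measured genes of each list, 1 point per gene with a bar at the list's median; dashed lines mark 2-fold. The factors known to act on RHG genes have the highest median, 0.48, while the apoptosis genes (red) have a median of -0.14 and reach from -1.04 to 0.51.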

How the data were processed

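PolyA RNA of sorted cells was sequenced as 1 brat RNAi and 1 control library. Files of whole-number counts, 1 read pair each, were deposited for both. The submitters' processing notes name DESeq 1.8.3, HTSeq, TopHat 1.4.1 and BWA 0.6.1, and gene identifiers are of FlyBase release r5.44, per the file headers. The authors' deposited comparison gives normalised counts as base means (a signal), log2 fold changes whose sign is turned here to brat RNAi over control, and adjusted p-values. All 10987 finite log2 values in it equalled those computed here within 1e-06.

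Read pairs assigned to no single gene (27.2% of the brat RNAi and 22.7% of the control table) were left out. Counts were divided by median-of-ratios size factors (0.913 for brat RNAi and 1.09 for control). Each log2 ratio has a 95% Clopper-Pearson interval, and levels per length have exact Poisson intervals; as read pairs are not molecules, they cover counting error only. Called genes were at least 2-fold apart with an interval excluding 0, and measured genes had summed counts of at least 20. With 1 library per group no test was run. The exact conditional interval of a ratio between genes came from the counts of both libraries. Transcript lengths came from BDGP6 (8875 measured genes with counts in both libraries, 97.1%; all 10 members); its coordinates are not printed, as the counts use release 5 identifiers. Named genes were the members, brat, the 2 most abundant genes of each list and those 2-fold apart (at most 4), and the 3 nearest measured genes on each side of the RHG cluster. Others (decay, Cyt-c-d, abd-A, Abd-B, Ubx, Antp, Dfd, p53, CG10176, egr, puc, drpr, ase, pros, mira, osk, bug, CG13196, CR45975, He, Hml, Pxn, Mlc1, Mlc2, Tm2 and Fbp1) were named after their values were seen. Members, lists and tests were chosen with earlier results of these data known. The interval computation was checked on simulated counts. Python 3.11.15, SciPy 1.17.1 and edgeR 4.0.16 (for other scaling factors) were used.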

Additional observations from a re-analysis of the deposited data

Results flagged for a closer look

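Read pairs that matched no annotated feature were not used in any comparison. They made up 26.6% of the brat RNAi table, above the 22.0% of the control table, and no replicate shows how far such a share varies.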

How the results depend on the processing

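The median of the 10 genes lay between -0.28 (total count scaling) and -0.12 (summed counts of at least 100, which left 5 of them), against -0.14. Total count and upper-quartile scaling moved the median of all measured genes to -0.14 and -0.10. The number of members at least 2-fold lower was 1, but 2 with total counts (reaper and sickle), 0 after correction for length and level, 0 with summed counts of at least 100 and 3 at the 1.5-fold threshold. None was higher under any setting. Over all genes, 105 higher and 410 lower became 185 and 218 after that correction, 57 and 99 with summed counts of at least 100, and 542 and 761 at 1.5-fold; total counts gave 62 and 535. Of 40 values for single members under the other scalings and the correction, 31 lay inside the member's counting interval and 37 had the same sign. The exceptions in sign were Ark after correction (-0.19) and Buffy, whose lowest value was -0.10. Values outside the interval all belonged to th, Iap2, Ice and Ark, such as th at -0.26 with total counts. The narrow counting intervals of these genes thus do not cover the choice of scaling. The cause of these shifts was not tested, except that a lower threshold or fewer genes changes counts by construction. Depth limits the scarce genes: at the summed counts of reaper (67), grim (81) and sickle (59), a gene had to be at least 1.71-, 1.67- and 1.90-fold lower for its interval to exclude 0, against 1.05-fold for Diap1. No paired analysis was possible because each group has 1 library.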
